A study of Marchantia polymorpha and Klebsormidium nitens with 56 samples.

Results

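The genes described here are the 215 genes of the filamentous alga *Klebsormidium nitens* whose transcripts were most deeply lowered by heat, out of 16122 genes in the count table of this species. They were chosen by their read share in CPM, the reads of a gene per 1000000 reads of the library. A gene was taken when its mean over the heated cultures, with 0.5 CPM added, was 1/16 or less of its mean over the control cultures, with 0.5 CPM added, and when its control mean was 10 CPM or more. The fall itself, its size and its test therefore come from the values that chose the genes, and are given as a description. All fold and log2 ratios below carry the added 0.5 CPM unless the edgeR fit is named.

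*K. nitens* is a streptophyte alga that lives on soil and belongs to the algal lineages closest to land plants. In plants and algae, heat activates heat shock transcription factors and the genes of chaperones, while many transcripts of growth and metabolism are made less or degraded faster. A transcript level measures synthesis and decay together, and RNA sequencing of a bulk culture cannot tell fewer cells of one kind from less RNA per cell. The series also holds heat experiments on the liverwort *Marchantia polymorpha*, which use other gene identifiers and were not used here.

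The groups were 3 control and 3 heated plate cultures of wild-type *K. nitens*. All grew for one month from droplets of suspension on C-medium plates, in continuous light at 22 °C. Heat was given for 2 h by placing the plates in water at 37 °C. The libraries held 19.7 to 28.3 M reads assigned to genes (M for 1000000 reads, median 23.9 M). Counts differed between the control libraries by 10.02 times what read sampling gives, and between the heated libraries by 26.9 times (chi-square per degree of freedom). The identifiers are not paired with gene names or functions in the sources used here, so no gene below carries a role, and no marker of heat or of cell type was looked up.

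Together the 215 genes took 3.36%, 3.19% and 3.34% of all reads in control replicates 1 to 3, and 0.118%, 0.0997% and 0.0983% in heat replicates 1 to 3. Their summed share was 3.30% ± 0.0915 in controls and 0.105% ± 0.0111 with heat (SD, n = 3). The control level of a single gene ran from 10.3 to 3898 CPM with a median of 38.9. With heat it ran from 0 to 126 CPM with a median of 0.951. The median gene was 23.4-fold lower and the quartiles were 18.7-fold and 35.4-fold. In the deep tail, 65 genes were at least 32-fold lower, 19 at least 64-fold, 6 at least 128-fold and 3 at least 256-fold.

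**Figure D1:**
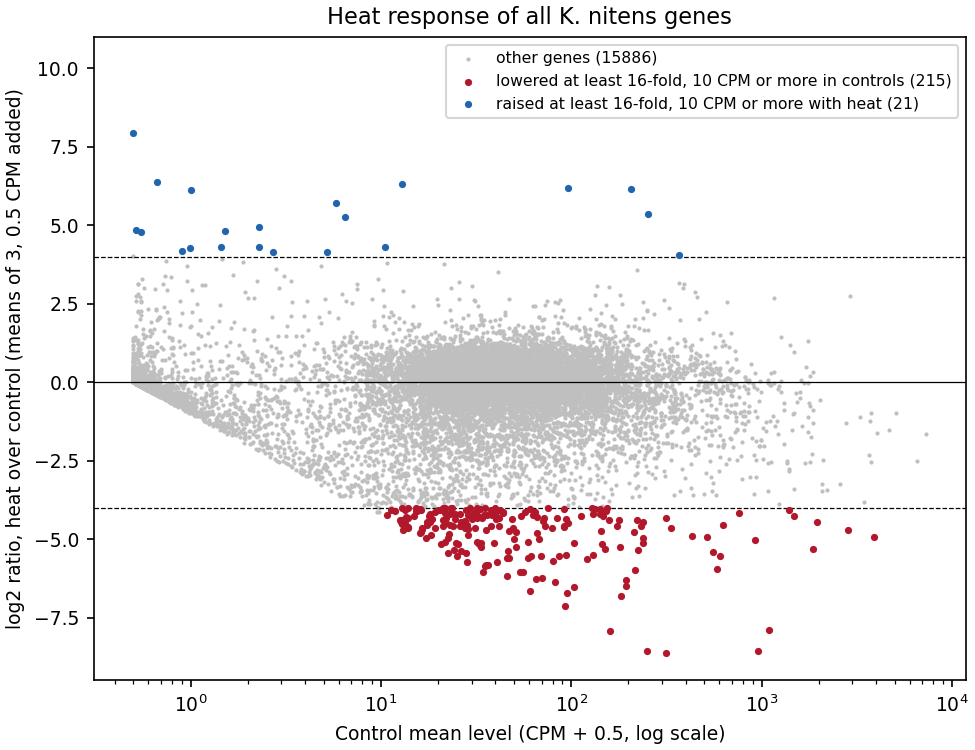
Each point is a gene. The x axis is the control mean level (CPM with 0.5 added, log scale) and the y axis the log2 ratio of heat to control means of 3 libraries. The 215 lowered genes lie below the lower dashed line (16-fold) and spread over the whole range of control levels from 10.3 to 3898 CPM, while 21 genes lie above the upper line under the mirrored rule.

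In the edgeR fit over all 11387 genes that passed its filter on low counts, 40.1% of genes were called lower and 41.5% higher with heat. All 215 genes passed the filter and all 215 were called lower, a count fixed by how they were chosen. Their fitted log2 changes ran from -11.2 to -4.01 with a median of -5.23, beside a median of 0.03 over all genes tested. The median fitted change is deeper than the median log2 ratio of the rule, which was -4.55. The rule adds 0.5 CPM, which makes ratios smaller for genes with little left in heat, while some genes with many reads had a slightly smaller fitted change than ratio. At a control level of 10 CPM the rule cannot give more than a 21-fold fall.

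Genes at the edge of the rule differed little from those just outside it. The 3 genes just inside had falls of 16.004-fold, 16.02-fold and 16.02-fold, and the 3 just outside of 15.9-fold, 15.8-fold and 15.7-fold. At the limit on control level, the lowest genes kept were at 10.3, 10.8 and 11.4 CPM. Below it, 2 genes met the ratio but not the level, at 9.28 and 8.997 CPM in controls. The added 0.5 CPM keeps genes of still lower level from a 16-fold ratio, even with no read in heat. This count is thus bounded by the rule and does not show how frequent deep falls are at low levels.

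The gene with the most reads in controls was KFL_000900290. It stood at 3965, 3769 and 3960 CPM in control replicates 1 to 3, the sixth highest of all genes by reads, and at 171, 79.8 and 126 CPM in heat replicates 1 to 3. The groups were far apart, and heat replicate 2 was the lowest heated library. The mean went from 3898 ± 112 to 126 ± 45.7 CPM (SD, n = 3), a 30.9-fold lower level. The edgeR log2 change was -4.88 ± 0.27 SE (quasi-likelihood test, Benjamini-Hochberg adjusted p = 2.42e-07), as a description since the rule used this contrast. CPM is not corrected for transcript length, so an order of genes by CPM is an order of reads and not of transcript copies.

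The next 3 genes by control reads shared the low value of heat replicate 2. The second stood at 3187, 2777 and 2576 CPM in controls and at 143, 55.1 and 127 CPM with heat. The third stood at 2005, 1774 and 2059 CPM in controls and at 114, 57.3 and 94.3 CPM with heat. The fourth stood at 1842, 1794 and 1949 CPM in controls and at 58.3, 34.02 and 47.8 CPM with heat. In these 4 genes heat replicate 2 was 0.41 to 0.645 of the mean of the other heated libraries. They made up 32.01% of the summed control level of the set, so they weigh heavily in its total, and the 20 highest genes made up 65.8%.

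The low value of heat replicate 2 was not shared by the set as a whole. Over the 215 genes heat replicate 2 was the lowest heated library for 44 genes and the highest for 106 genes, or 49.3%, beside 51.6% of the 9898 other genes of at least 10 CPM in controls. Among the 41 lowered genes with at least 300 reads over the heated libraries, 4 had heat replicate 2 at 0.6 or less of the others (9.76%). The fourth gene by control reads, at 0.645, was not among these. Of 9568 other genes that also had at least 300 reads, 32 met this limit (0.334%). Read numbers above that minimum were not matched between the sets.

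**Figure D2:**
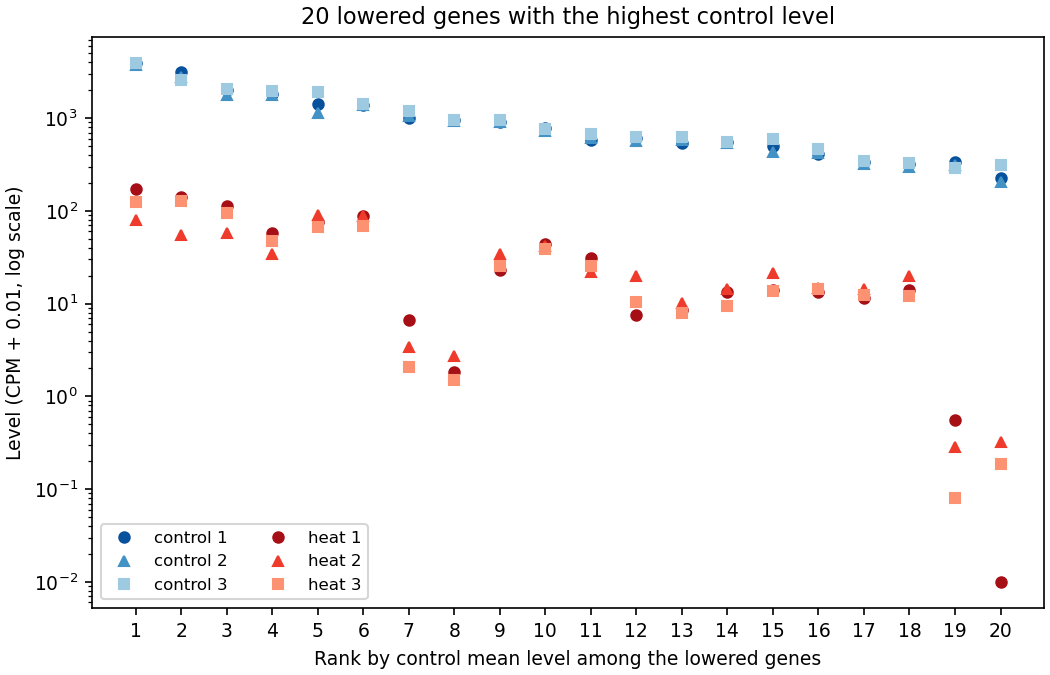
Levels of the 20 lowered genes with the highest control level, by rank (x axis), in CPM with 0.01 added on a log scale (y axis). Each symbol is a library, blue for control and red for heat. Control libraries lie close together for most ranks but further apart at ranks such as 5, 15 and 20. Heat replicate 2 (triangles) is lowest for ranks 1 to 4, and ranks 7, 8, 19 and 20 fall to below 7 CPM.

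Other genes with high control levels went down much further. The seventh by control reads stood at 1001, 1066 and 1197 CPM in controls and at 6.60, 3.43 and 2.05 CPM with heat, 241-fold lower. The eighth stood at 964, 941 and 954 CPM in controls and at 1.82, 2.72 and 1.48 CPM with heat, 380.2-fold lower. The sixth, by contrast, stood at 1374, 1403 and 1406 CPM in controls and kept 88.1, 88.7 and 68.9 CPM with heat, 16.9-fold lower. The heated levels of the sixth gene thus lay far above those of the seventh and the eighth, beyond the spread of any of the 3.

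The gene with the lowest ratio was KFL_003290080. It stood at 340.2, 315 and 289 CPM in controls, which is 8056, 7602 and 5688 reads, and at 0.550, 0.276 and 0.0707 CPM with heat, which is 13, 7 and 2 reads. The ratio was 395-fold lower (log2 -8.62), and the edgeR log2 change was -10.01 ± 0.24 SE (adjusted p = 3.51e-09), again a description. Without heat replicate 1 the edgeR log2 change was -10.75, and without heat replicate 3 it was -9.52. Another gene went from 227, 207 and 312 CPM in controls to 0, 0.315 and 0.177 CPM with heat. These heated levels are 0, 8 and 5 reads. Its ratio was 375-fold lower and its edgeR log2 change was -10.4 ± 0.33 SE, which the SEs do not separate from that of KFL_003290080. The deepest edgeR log2 change, -11.2 ± 0.44 SE, was that of a gene with no read in any heated library. By ratio that gene was 26.2-fold lower. The order of the deepest genes thus differs between the ratio and the edgeR fit.

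Of the 215 genes, 1 had no read in any heated library. It had 281, 339 and 234 reads in controls, 12.6 ± 1.24 CPM (SD, n = 3), and without the added 0.5 CPM a limit of 3 reads over the heated group makes it at least 325-fold lower. This limit covers counting error only. With 0.5 CPM added, as for the other genes, its ratio was 26.2-fold lower, so the 325-fold is not comparable with the ratios above. A further 4 genes had 1 to 3 reads over the heated libraries, and 22 in all had at most 10 reads. The median gene kept 73 reads over the heated libraries, and 12 genes kept more than 1000. Spread evenly over the 2 h on a log scale, the falls correspond to 1 halving every 13.9 minutes for the gene deepest by ratio. For the median gene it is every 26.4 minutes. These times restate the ratios as a rate and assume a constant one. The 0.5 CPM in the ratios makes them longer, most for genes with few reads left in heat.

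Replicates of the heated group scattered more than those of the controls, at levels near 1 CPM. The coefficient of variation (SD over mean) had a median of 7.20% in controls and 32.05% with heat, against 5.10% and 7.16% for the other genes of at least 10 CPM in controls. Genes under 10 CPM in controls whose heated level lay within the quartiles of the set, 0.354 to 2.81 CPM, had a heated median of 28.7% (527 genes). Every heated library was below every control library for all 215 genes, and for 42.1% of all genes of at least 10 CPM. A stricter comparison, every heated against every control library at 1/16 or less, held for 134 of the 215 genes.

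**Figure D3:**
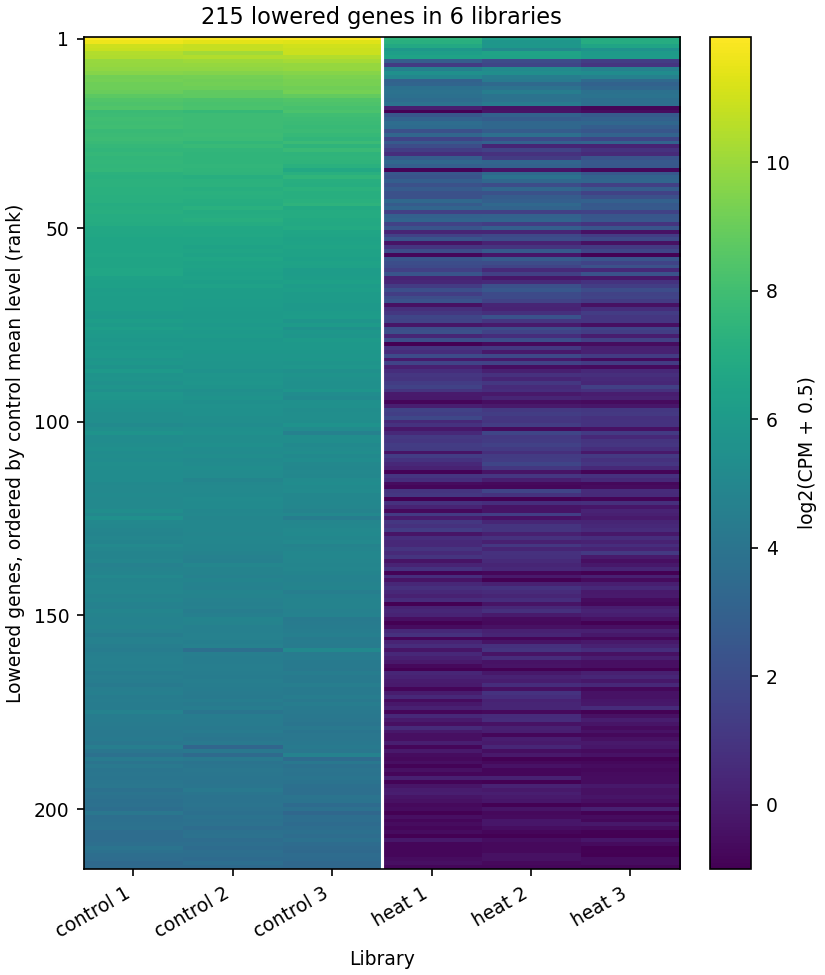
Levels of the 215 lowered genes (rows, ordered by control mean) in the 6 libraries (columns), as log2(CPM + 0.5). Controls grade smoothly from 3898 down to 10.3 CPM, and heated columns are dark nearly throughout, with single rows darker than their neighbours where a gene with a high control level was nearly lost.

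In controls the lowered genes stood lower in replicate 3. Control replicate 3 was the lowest control for 119 of the 215 genes (55.3%), against 34.3% of the other genes of at least 10 CPM. Its level over the mean of control replicates 1 and 2 had a median of 0.938 for the lowered genes and 1.01 for the others. It was 0.8 or less for 21 lowered genes (9.77%) and for 162 others (1.64%). A gene of the set that showed this was the fourth by ratio, at 191, 176 and 113 CPM in controls and at 0.0423, 0.315 and 0.106 CPM with heat. The most variable controls were those of a gene at 21.1, 12.6 and 35.2 CPM. With control replicate 3 left out, the rule took 208 genes, of which 206 were among the 215. With control replicate 1 or 2 left out it took 210 and 208 genes. These counts do not measure how much control replicate 3 changes the size of the falls.

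The set was not limited to one range of levels. Of genes between 10 and 20 CPM in controls 2.70% were in it, between 20 and 50 CPM 2.26%, between 50 and 100 CPM 1.42%, between 100 and 200 CPM 1.73% and between 200 and 500 CPM 2.27%. Above these the shares were 4.04% (8 of 198 genes) between 500 and 1000 CPM and 7.95% (7 of 88 genes) from 1000 CPM. Of the 10 genes with the most control reads 1 was in the set, and of the first 100 there were 8. These shares are descriptions, and the last rest on few genes. The added 0.5 CPM also asks for a deeper fall in CPM itself from genes with low control levels. The shares are thus partly set by the rule, and how far was not tested.

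Identifiers of this annotation have a first part of 5 digits, shared by groups of genes, and a second part of 4 digits that counts up within the group and is a multiple of 10 for 97.2% of them. Some numbers are skipped in the table. In the published *K. nitens* gene names the first part is the scaffold and the second the order along it. No genome was used here, so neighbours below means genes that follow each other in that order among the identifiers of the table, with no distances and with skipped numbers ignored. The 215 genes fell into 169 of 1682 such groups. In 136 groups there was 1 lowered gene, in 24 there were 2, in 7 there were 3, in 1 there were 4 and in 1 there were 6, so 79 genes (36.7%) shared their group with another.

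Some lowered genes adjoined each other. A direct neighbour was also in the set for 35 of the 215 genes (16.3%), while 263 of 9896 other genes of at least 10 CPM in controls, identifiers marked t or r left out (2.66%), adjoined a gene of the set. The 35 genes formed 15 runs of genes next to each other in the table, 12 of 2 genes, 1 of 3 and 2 of 4. When the order was restricted to genes of at least 10 CPM in controls, 37 genes adjoined another, and 3.42% of the others did. Neighbours outside the set also had lower ratios than other genes. Those 263 had a median log2 ratio of -0.25 (quartiles -1.53 and 0.42), against 0.02 (quartiles -0.65 and 0.47) for the 9633 others, and 17.5% of them were at least 4-fold lower against 7.37%. No test was made, since the values are from the contrast that chose the genes, and adjoining genes may be copies of one another that share reads, which was not tested.

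The group with the most lowered genes held 12 genes, of which 6 were in the set, among them KFL_003290080 at place 7. At places 5 to 8 the log2 ratios were -5.72, -6.50, -8.62 and -5.31, and at places 10 and 11 they were -4.65 and -4.35. The edgeR log2 changes of places 5 and 6 were -7.11 ± 0.19 and -6.85 ± 0.37 SE, so the order of their ratios was not kept. Place 5 stood at 41.1, 42.6 and 37.0 CPM in controls and at 0.381, 0.158 and 0.283 CPM with heat. Place 6 stood at 200.4, 208 and 173 CPM in controls and at 3.47, 0.749 and 0.742 CPM with heat, so its heat replicate 1 was well above the others. Place 8 stood at 162, 158 and 132 CPM in controls and at 4.15, 3.55 and 2.23 CPM with heat.

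Between these stood a gene that barely differed. Place 9 was at 44.0, 44.5 and 42.6 CPM in controls and at 37.4, 53.5 and 39.6 CPM with heat, a log2 ratio of -0.0049 with overlapping groups. Places 2, 3, 4 and 12, outside the set, had log2 ratios of -3.01, -3.32, -3.15 and -2.44, with place 3 at 6.72 ± 0.588 CPM in controls and thus below the limit on level. Place 1 had a log2 ratio of 0.99 and was higher with heat. In this group 10 of 12 genes were thus at least 4-fold lower, counted over both the 6 of the set and 4 of the 6 others. The 6 are lower by the rule, and the group was picked for holding the most genes of the set. Of all genes of at least 10 CPM in controls, 9.60% were at least 4-fold lower.

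**Figure D4:**
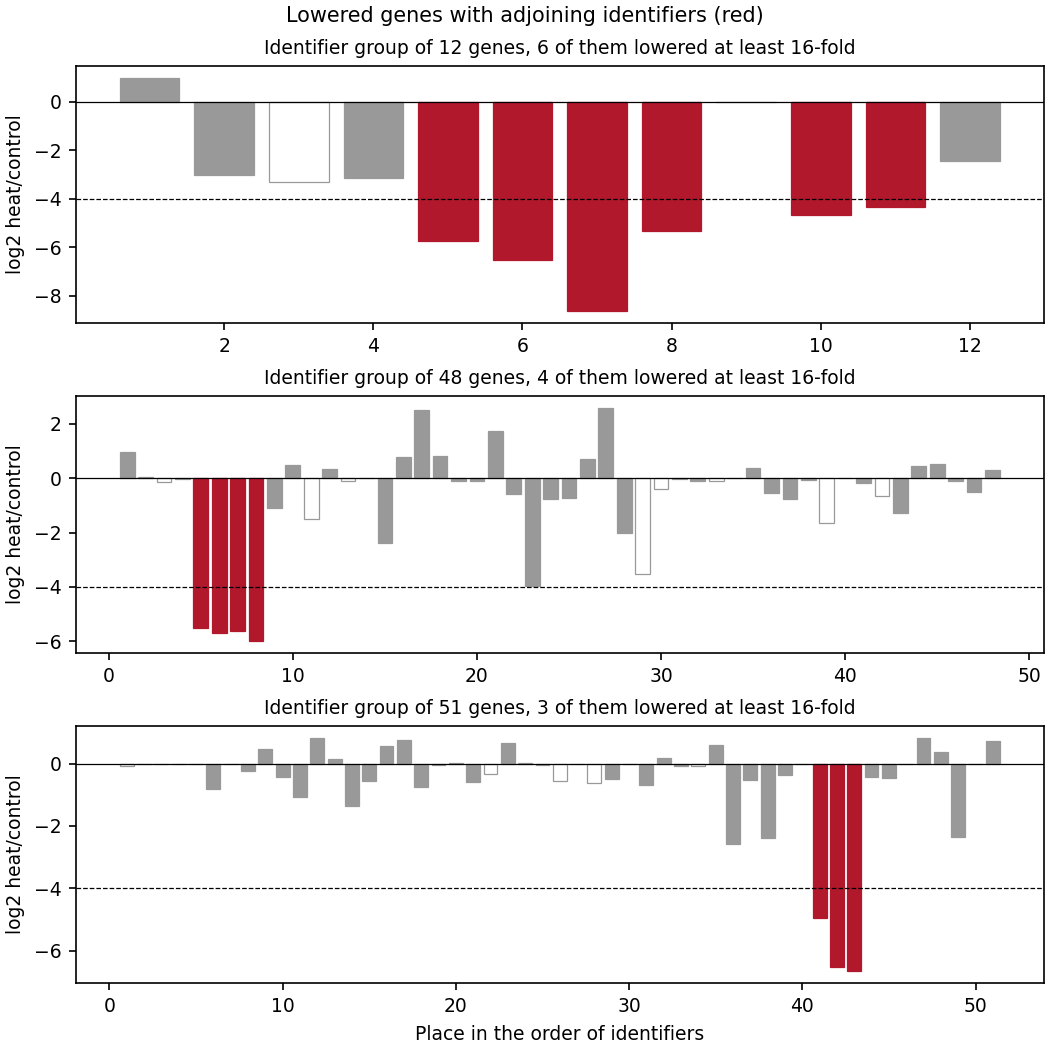
Log2 ratio of heat to control (y axis, 0.5 CPM added) for each gene of 3 identifier groups, in the order of identifiers (x axis, no distances). Red bars are genes of the set, grey bars other genes and open bars other genes under 10 CPM in both groups, and the dashed line is the 16-fold limit. In the top group 6 of 12 genes are red, with place 9 near 0 between them. In the lower groups the 4 and 3 red bars stand among genes of smaller change.

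The other run of 4 lay in a group of 48 genes at places 5 to 8 and had more even ratios than places 5 to 8 of the group above. Its genes stood at 130 ± 8.34, 79.3 ± 3.25, 58.5 ± 2.47 and 215 ± 24.4 CPM in controls and at 2.33 ± 0.124, 1.05 ± 0.263, 0.709 ± 0.318 and 2.87 ± 0.360 CPM with heat (SD, n = 3). Their log2 ratios were -5.52, -5.69, -5.61 and -6.00, a narrow range beside the 3.67-fold range of control levels. The 31 other genes of this group with at least 10 CPM in controls had a median log2 ratio of -0.09. The run of 3 lay in a group of 51 genes, with log2 ratios of -4.96, -6.54 and -6.66. Its edgeR log2 changes were -8.13 ± 0.47, -7.35 ± 0.18 and -9.04 ± 0.22 SE, so the order by ratio was not kept. The heated levels were 0.054, 0.611 and 0.098 CPM, where the added 0.5 CPM limits the ratio. The middle gene of this run stood at 103 ± 6.25 CPM in controls and at 0.611 ± 0.284 CPM with heat. The 32 others of that group had a median of -0.30.

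Pairs of neighbours differed in level. Over the 12 runs of 2 genes, the higher gene had 1.23 to 16.5 times the control level of the lower (median 1.98). The widest pair had 919 ± 24.1 and 55.6 CPM in controls and 27.7 ± 5.82 and 0.347 CPM with heat. The deepest pair held the eighth gene by control reads, at a log2 ratio of -8.57, and a neighbour at -6.31, from 194 CPM in controls to 1.95 CPM with heat.

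Large changes were more frequent downward than upward. The mirrored rule, at least 16-fold higher with at least 10 CPM in the heated libraries, took 21 of 9162 genes (0.229%), against 215 of 10113 (2.13%) for the lowered genes. At 2-fold the shares were 20.03% lower and 8.38% higher, at 4-fold 9.60% and 1.35%, and at 8-fold 4.69% and 0.469%. The 21 raised genes took 0.0794% to 0.119% of reads in controls and 3.60% to 4.33% with heat. None of the 21 raised genes adjoined another of the 21, against 35 of 215 lowered genes. A smaller set has fewer members to adjoin, so these counts are not comparable, and no difference was tested. CPM is a share of reads, and what the gain of the raised genes adds to the falls was not tested.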

How the data were processed

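RNA of *K. nitens* plate cultures was purified on RNeasy columns (Plant Mini), per the labels' protocols. The authors deposited a table of raw read counts per gene, without normalization. STAR is named per the submitters' processing notes. Not given in the sources used here are its version, the counting program, strand settings, the treatment of reads mapping to several genes and the genome build, which could change counts of genes with similar copies. Columns were matched to samples through labels and sample sheet, and 0 columns were left unmatched. All 65 identifiers marked t and 9 marked r stayed in library totals.

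CPM used column sums. Counts were tested with edgeR 4.0.16 in R 4.3.3 (TMM, filterByExpr, quasi-likelihood F test, Benjamini-Hochberg over 11387 genes, threshold 0.05), after a check on simulated counts. TMM factors were 0.944 to 1.03. DESeq2 1.42.0 and other settings were alternatives. The design text calls the replicates biological. The p-values set the difference between groups against the spread between these libraries, which is estimated with information from other genes. The genes, lists and rules were chosen with earlier results of these data known. Named identifiers are the gene with the highest control mean and that with the lowest ratio, and other genes were picked as examples after their values were seen. The alternatives on neighbours were added after seeing the data.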

Additional observations from a re-analysis of the deposited data

How the results depend on the processing

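The number of genes taken by the rule was 215 and stayed within 1.5 times of it with TMM-scaled CPM (197), 0.1 CPM added in the ratio (291), group medians (208) and control limits of 5 (217) or 20 CPM (176). The limit of 5 CPM could add few genes, since the added 0.5 CPM bounds the ratio at low control levels. It was 124 with 1 CPM added, 474 at a ratio of 1/8, 65 at 1/32 and 134 when every heated library had to meet the limit against every control. For these settings the genes adjoining another of the set numbered 21, 93, 14 and 19, or 16.9%, 19.6%, 21.5% and 14.2% of each set. Leaving out 1 library gave 188 to 233 genes, 29 to 42 of them adjoining another. Without heat replicate 3, 188 genes were taken, of which 187 were among the 215. The edgeR counts of 4570 lower and 4727 higher genes ran from 4337 to 4742 and from 4442 to 4816 over all settings. The median log2 change of the set ran from -5.28 to -5.14, and all 215 genes were called lower in each of the 10 other fits. That count is fixed by how the genes were chosen, and 40.1% of all genes tested were called lower in the main fit. With the replicate number as a block, 4511 genes were lower and 4616 higher. Libraries with the same number did not deviate together (correlations -0.0245, -0.0685 and 0.0061). These are deviations from means of 3 libraries, so they cannot tell whether such libraries were grown or harvested together. Over the heated libraries 57 genes kept at most 30 reads. Depth limits how closely their edgeR changes are known, and the added 0.5 CPM limits their ratios.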
